A study of Sus scrofa with 14 samples.

Results

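Chemokines are small secreted proteins that draw leukocytes along a gradient, and each is read by one or a few G protein-coupled receptors on the cells it attracts. In the gut, the epithelium itself secretes some of them. CCL20 draws CCR6-bearing dendritic cells and lymphocytes, above all to the epithelium over lymphoid follicles, CCL25 and CCL28 draw T cells and plasma cells to the mucosa, and CXCL8 and CXCL2 draw neutrophils through CXCR2. CXCL9, CXCL10 and CXCL11 are induced by interferon and share the receptor CXCR3 of T helper 1 and natural killer cells, whereas CCL2 attracts monocytes through CCR2 and CCL5 is released by T cells and natural killer cells.

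The 10 chemokines described here are CCL20, CXCL8, CXCL2, CXCL9, CXCL10, CXCL11, CCL2, CCL5, CCL25 and CCL28. They are 10 of the 3020 pig genes that could be named on the array. They were chosen by name, but with earlier results of these data known. A probe was taken when its RefSeq accession belonged to one of these genes, or when the S3 Table of the study named it so, which added 0 probes. This gave 14 probes, with 2 for each of CCL2, CCL5, CXCL2 and CXCL10 and 1 for each of the other 6 genes. The probe of CCL20, that of CXCL11 and 1 of the 2 of CCL2 stand in S3 Table, which lists probes for their change in these same pigs, so a change in them is no independent evidence.

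In the pig small intestinal segment perfusion (SISP) model, segments of the jejunum stay in the anaesthetised animal with blood supply and nerves intact and are perfused through tubes. Male piglets, 5 weeks old and weighing 8.2 kg, were used, and segments lay between 31% and 58% of the length of the small intestine. Each was filled with 20 ml of digest, perfusion started after 30 min, and the mucosa was scraped off after 6 h. The question was how digested onion changes gene expression in the mucosa compared with a segment of the same animal that received a control digest.

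The Sd group held the segments given the saline digest, which was diluted in saline solution, in pigs 1, 2, 4, 5, 6, 7 and 8 (n = 7). The YOd group held the yellow onion digest segments of pigs 1, 2 and 4 (n = 3), and the WOd group the white onion digest segments of pigs 5, 6, 7 and 8 (n = 4). Both onion digests were diluted in peptone, and less than the saline digest was. Onion, diluent and strength of the digest thus cannot be told apart. No pig received both onions, so the kind of onion and the set of pigs cannot be told apart either. Each pig gave 1 array per treatment, so a difference between 2 neighbouring segments is part of every ratio. Pig 3 was not analysed here.

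The 14 arrays carried 43603 probes, of which between 50.6% and 70.7% were well above background on an array, and lay on 5 slides read in 2 scan sessions. Levels are log2 of the signal relative to the array's 75th percentile, so that 0 is the brightness of that percentile, and a level of 1 probe is not comparable with that of another. For genes with 2 probes, the values are those of the brighter one. The label of a mucosal scraping held in the markers, since all 7 absorptive epithelium markers on the array were above the floor and their summed linear level ranged from 582 to 1098 on the 14 arrays. On the Sd array of pig 1, KRT8, FABP1, FABP2, APOA4 and ANPEP had log2 levels of 7.34 to 7.43. The CCL25 probe, too bright for the scanner there, had 7.33. The sum is thus capped by the scanner's limit, and its range is no measure of the amount of epithelium. In whole scrapings, fewer cells of a type and less RNA per cell cannot be told apart. In pigs 2 and 7 the Sd array came from another slide and a later scan than the onion array, so slide and treatment cannot be told apart within these 2 pigs.

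All 14 chemokine probes were well above background on 14 of 14 arrays. CCL2 alone of the 10 chemokines passed the thresholds with an onion digest, while the pigs differed widely in several of them. Over the 7 pigs, 0 of the 10 genes had both a raw p below 0.05 and a change above 1.5-fold, the selection rule of the methods, against 1.25% of the 2400 genes tested (limma with the pig as a block). The median log2 fold change of the 10 was 0.01 and that of all genes 0.09. With YOd CCL2 passed, 1 of the 10 against a share of 4.53% over all genes. With WOd 0 of the 10 passed, against 1.19%. In all 4 comparisons of the onions, 0 of the named genes passed after Benjamini-Hochberg adjustment. The raw p alone was below 0.05 for 169 genes over the 7 pigs, 274 with YOd, 67 with WOd and 103 for the difference between the onions, among them CCL2 and CCL5 with YOd and CCL2 for the difference.

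**Figure D1:**
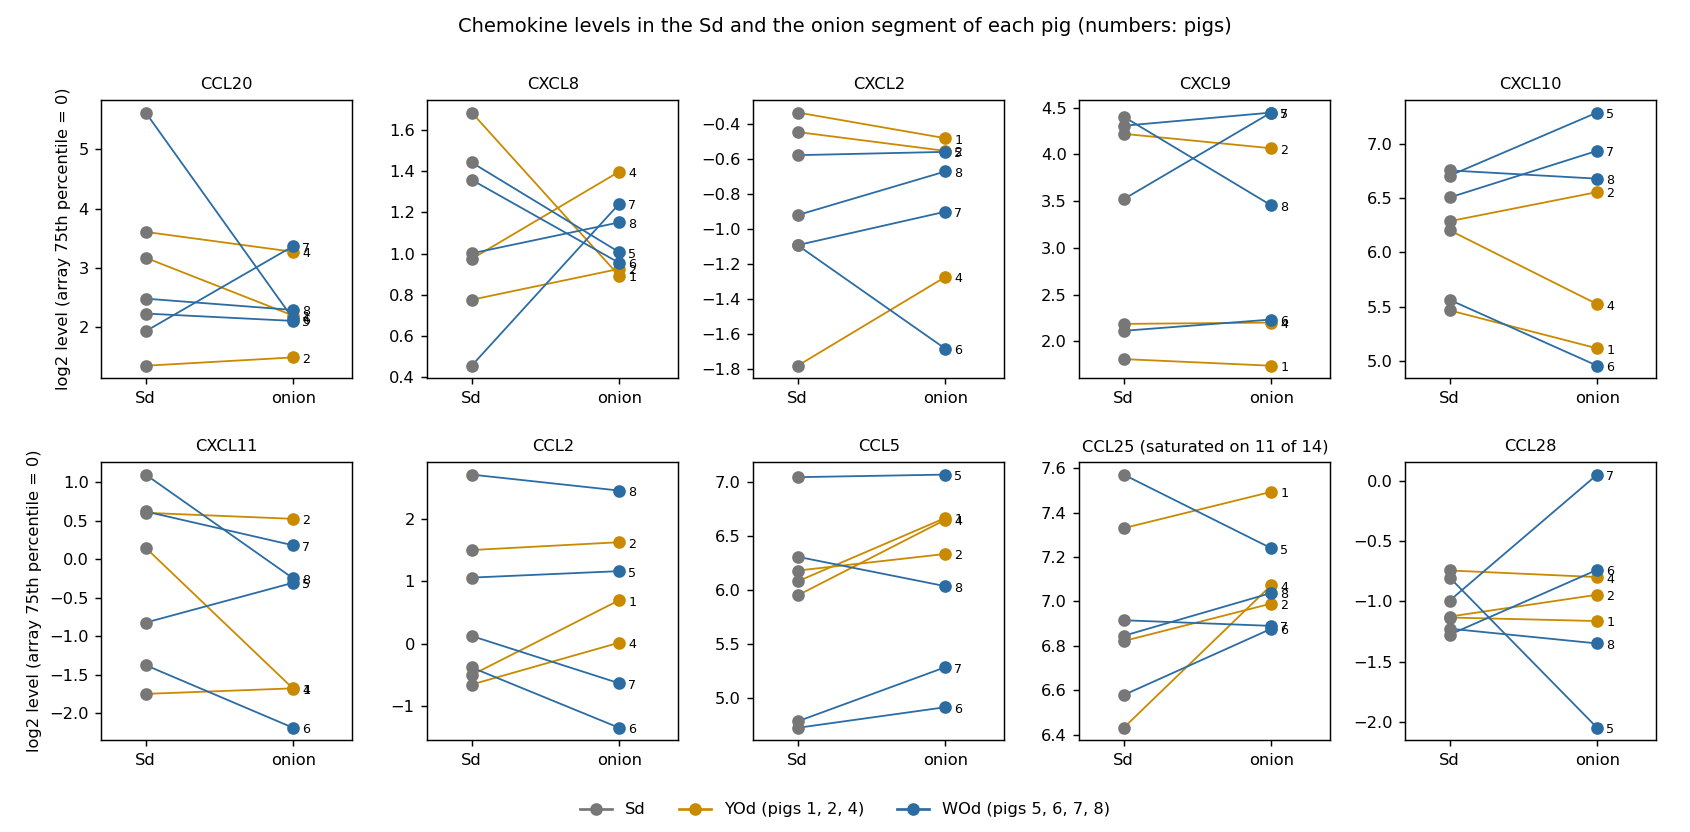
Log2 level of each of the 10 chemokines (vertical axis, 0 is the 75th percentile of the array) in the Sd segment (grey) and the onion segment of each pig (ochre for YOd, blue for WOd), 1 line per pig and the pig's number at the right. In CXCL9, CCL2 and CCL5 the pigs stay far apart on both sides, whereas in CCL20 the Sd segment of pig 6 stands above the other 13 arrays.

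CCL20, the chemokine of the follicle-associated epithelium, had the widest spread between Sd segments of the 10 genes. Its log2 level in the Sd segments ranged from 1.35 in pig 2 over a median of 2.48 to 5.62 in pig 6, a 19.4-fold range on the linear scale. The YOd segments of pigs 1, 2 and 4 had 2.19, 1.49 and 3.27. The WOd segments of pigs 5, 6, 7 and 8 had 2.11, 2.14, 3.37 and 2.29. The groups overlapped, and the Sd segment of pig 6 lay above every other array. The SD over the 7 Sd levels, 1.41, was larger than or equal to that of 98.7% of the 2400 genes, whose median SD was 0.39.

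Within the pigs, CCL20 moved in both directions. The log2 ratios of onion over Sd in the YOd pigs 1, 2 and 4 were -0.98, 0.14 and -0.34. Those of the WOd pigs 5, 6, 7 and 8 were -0.12, -3.48, 1.44 and -0.19. The onion segment was lower in 5 of 7 pigs, 11.2-fold lower in pig 6 and 2.71-fold higher in pig 7. The mean over the 7 pigs was -0.51 (SE 0.44, 95% interval -1.48 to 0.47, adjusted p = 0.690 by limma). It rested on pig 6, without which it was -0.01 (SE 0.25), and the WOd value went from -0.59 (SE 0.69) to 0.37 (SE 0.34). Without pig 7, the WOd value was -1.27 and passed both thresholds with a raw limma p of 0.0498.

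The same Sd array of pig 6 stood apart in markers of B cells. Of 10 B cell and follicle markers, 2 had a probe, namely CD79A of the B cell receptor complex and the B cell surface protein MS4A1 (CD20). Their summed linear level was 2.74 in that segment and at most 0.281 on the other 13 arrays. In the WOd segment of the same pig it was 0.0927, with both genes at the floor. MS4A1 was above the floor on 3 of 14 arrays. CCR7, the homing receptor of lymphocytes, and the microbial sensor TLR2 also had their highest level of the 14 arrays there, and their log2 ratio of WOd over Sd in pig 6 was -2.97 and -2.61. That ratio was -2.40 for CCL19, the ligand of CCR7, -2.74 for CXCL12 and -1.98 for its receptor CXCR4. These 3 genes had an Sd level in pig 6 that was not above that of pig 8, and their WOd level in pig 6 was the lowest of the 14 arrays. In the other 6 pigs the summed B cell markers of the onion segment were between 1.00 and 1.15 times those of the Sd segment. The 1.00 was that of pig 7, where both genes were at the floor in both segments. Their part in the CCL20 value of pig 6 was not tested.

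**Figure D2:**
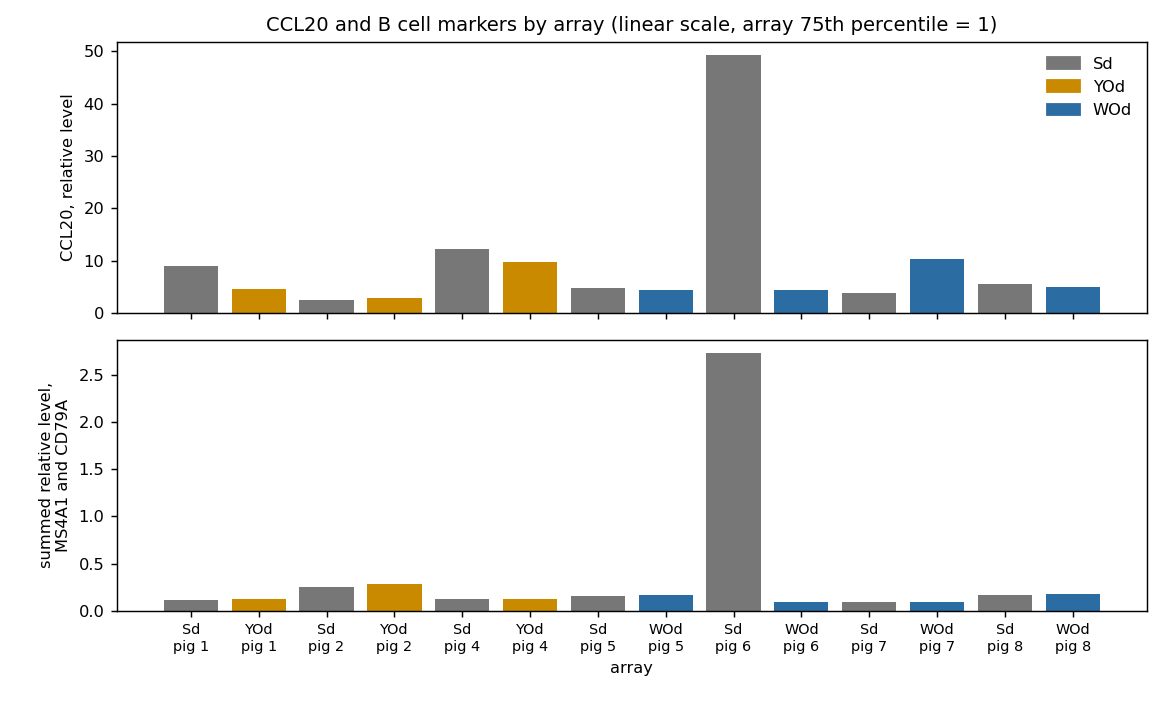
Linear level of CCL20 (top) and summed linear level of MS4A1 and CD79A (bottom), with the array's 75th percentile set to 1, on each of the 14 arrays (grey Sd, ochre YOd, blue WOd), 1 bar per array. The Sd segment of pig 6 is the highest array in both panels, at 2.74 for the B cell markers against at most 0.281 elsewhere.

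CXCL8 (interleukin 8), the neutrophil attractant of the epithelium, had a narrower range of levels than CCL20. The SD of its Sd levels was 0.42, against a median of 0.39 over all genes. The SD of its log2 ratios, 0.55, was larger than or equal to that of 81.9% of genes. Its log2 level ranged from 0.46 in pig 7 over a median of 1.00 to 1.68 in pig 1 in the Sd segments. It was 0.89, 0.93 and 1.40 with YOd in pigs 1, 2 and 4. With WOd it was 1.01, 0.95, 1.24 and 1.15 in pigs 5, 6, 7 and 8. All 7 onion values lay within the range of the Sd values, and the whole range over 14 arrays was 2.34-fold. The ratio was above 1 in 4 pigs and below it in 3, and over 1.5-fold only in pig 1, at -0.79 on the log2 scale, and in pig 7, at 0.79. The mean log2 ratio was -0.02 (SE 0.18, 95% interval -0.41 to 0.38, adjusted p = 0.982 by limma), and changed sign without pig 1, 5 or 6.

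CXCL2, a neutrophil attractant that shares the receptor CXCR2 with CXCL8, had log2 levels from -1.78 to -0.33 in the Sd segments, with a median of -0.92. The log2 ratio was -0.15, -0.11 and 0.51 in the YOd pigs 1, 2 and 4. It was 0.02, -0.59, 0.19 and 0.25 in the WOd pigs 5, 6, 7 and 8. The mean of 0.02 (SE 0.13, 95% interval -0.27 to 0.31) was smaller than the spread between pigs (SD 0.35, n = 7). The second probe of CXCL2 gave 0.10 with a sign equal to that of the first in 7 of 7 pigs.

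CXCL9, CXCL10 and CXCL11 are neighbours in the pig genome (Sscrofa11.1), where RefSeq places ART3 between CXCL9 and CXCL10 and CXCL11 next to CXCL10. CXCL9, the one of the 3 that depends most on interferon gamma, separated the pigs. Its log2 level in Sd segments ran from 1.81 over a median of 3.52 to 4.40. In the YOd segments of pigs 1, 2 and 4 it was 1.74, 4.07 and 2.20, and in the WOd segments of pigs 5, 6, 7 and 8 it was 4.45, 2.23, 4.45 and 3.46. Both segments of pigs 1, 4 and 6 had at most 2.23, and both segments of the other 4 pigs at least 3.46. The mean log2 ratio was 0.004 (SE 0.18, 95% interval -0.39 to 0.40), with -0.95 in pig 8 and 0.93 in pig 7 as the extremes. In the other 5 pigs the ratio lay between -0.15 and 0.14.

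CXCL10 (IP-10) had log2 levels in Sd segments from 5.47 over a median of 6.29 to 6.75. With YOd they were 5.12, 6.55 and 5.53 in pigs 1, 2 and 4, and with WOd 7.28, 4.96, 6.93 and 6.68 in pigs 5, 6, 7 and 8. Pigs 1 and 6 held the lowest Sd levels and, with pig 4, the lowest onion levels. The mean log2 ratio was -0.06 (SE 0.17, 95% interval -0.43 to 0.31). The probe was saturated on 2 arrays, the Sd array of pig 8 and the WOd array of pig 7, so these levels are lower bounds. The second probe was flagged as saturated on none and gave -0.27 (SE 0.24), with -0.56 for YOd against -0.25 from the first. The largest gap between the probes within a pig was 0.93 on the log2 scale, in pig 8. On the Sd array of pig 8 the second probe had a signal of 67380.5, and the saturated first probe 67195.1. That level of the second probe may thus be a lower bound too.

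CXCL11 (I-TAC) had the mean log2 ratio farthest from 0 over the 7 pigs, leaving aside CCL25. Its log2 level in Sd segments was -1.75 at the lowest, 0.15 at the median and 1.09 at the highest. In the YOd segments of pigs 1, 2 and 4 it was -1.68, 0.52 and -1.68, and in the WOd segments of pigs 5, 6, 7 and 8 it was -0.31, -2.19, 0.18 and -0.25. The groups overlapped. The log2 ratio was 0.07, -0.08 and -1.83 with YOd in that order of pigs, and 0.52, -0.81, -0.44 and -1.35 with WOd. The onion segment was thus lower in 5 of 7 pigs, 3.55-fold lower in pig 4, 2.54-fold in pig 8 and 1.76-fold in pig 6.

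The mean log2 ratio of CXCL11 was -0.56 (SE 0.25, 95% interval -1.12 to 0.0001), just under 1.5-fold. Its adjusted p was 0.652 by limma, and the exact two-sided sign-flip permutation test over the 7 pigs gave p = 0.141. Single pigs decided its side of the thresholds. Without pig 1, 2 or 5 the value was -0.66, -0.64 and -0.74 and passed both thresholds, and without pig 4 it was -0.35. YOd gave -0.61 (SE 0.36) and WOd -0.52 (SE 0.29), neither of them past the thresholds.

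**Figure D3:**
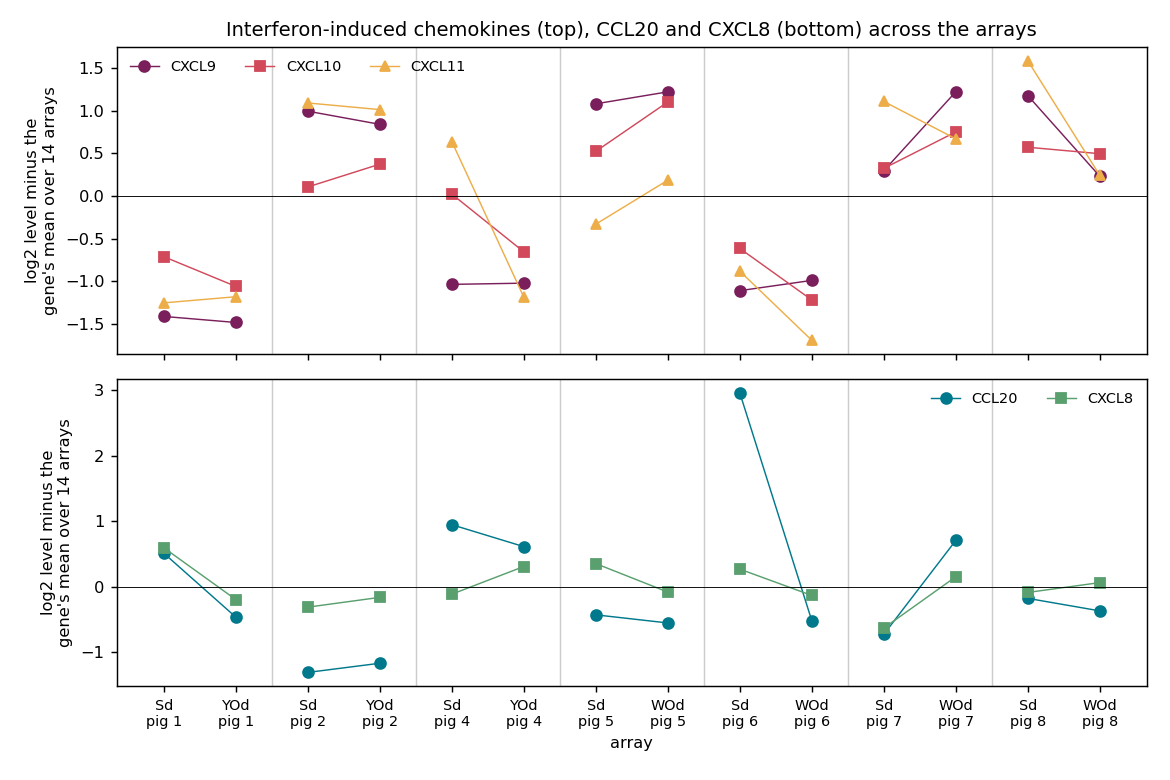
Log2 level minus the gene's mean over the 14 arrays (vertical axis) for CXCL9, CXCL10 and CXCL11 (top) and for CCL20 and CXCL8 (bottom), by array, with lines joining the Sd and the onion segment of a pig. In pigs 1 and 6 all 3 interferon-induced chemokines lie below their mean in both segments, whereas CCL20 peaks in the Sd segment of pig 6 and CXCL8 has a narrower range than CCL20.

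Set side by side, the levels of CXCL9, CXCL10 and CXCL11 were more alike from array to array than those of CCL20 and CXCL8. Over the 14 arrays, Pearson's r of log2 level was 0.89 between CXCL9 and CXCL10, 0.79 between CXCL10 and CXCL11 and 0.75 between CXCL9 and CXCL11. Among the 7 Sd arrays alone these were 0.87, 0.76 and 0.66, and among the 7 onion arrays 0.95, 0.89 and 0.90. Between CCL20 and CXCL8 r was 0.54 over the 14 arrays, with 0.48 in the Sd and 0.86 in the onion arrays. Between CCL20 and the interferon-induced genes it was -0.48 for CXCL9, -0.28 for CXCL10 and -0.34 for CXCL11, with -0.74, -0.67 and -0.59 in the Sd arrays alone and -0.06, -0.01 and -0.16 in the onion arrays alone. Likeness was not confined to the interferon-induced genes. In the Sd arrays CCL2 had an r of 0.89 with CXCL9, 0.71 with CXCL10 and 0.63 with CXCL11. In the onion arrays these were 0.31, 0.49 and 0.55. All these values describe 14 arrays that come from 7 pigs and share slides, and the 2 arrays of a pig are not independent. The ratios within pigs followed another order. For the interferon-induced genes r over the 7 pigs was lower than for the levels, at 0.27 between CXCL9 and CXCL10, 0.66 between CXCL10 and CXCL11 and 0.31 between CXCL9 and CXCL11. For the ratios of CCL20 it was 0.63 with CXCL8, 0.67 with CXCL10, 0.23 with CXCL9 and 0.13 with CXCL11. Without pig 6 these were 0.79, 0.60, 0.64 and 0.02.

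Whether pigs differed beyond the spread within a pig was tested with limma's F-test of the pig terms, a test added after the values were seen. CXCL9 (adjusted p = 0.000962), CCL5 (0.00103), CCL2 (0.00237), CXCL10 (0.00617), CXCL11 (0.00912) and CXCL2 (0.0191) passed an adjusted p of 0.05. CCL20 (0.205), CCL28 (0.399) and CXCL8 (0.764) did not pass. The 6 of 10 genes stand against 44.6% of all genes tested, so differences between pigs are common on these arrays and not particular to chemokines. The SD between the 7 pig means was 1.12 for CXCL9, 1.00 for CXCL11 and 1.23 for CCL2, against a median of 0.34 over all genes. The 4 arrays of pigs 6 and 8 lay on 1 slide, and there pig 8 exceeded pig 6 by 10.8-fold for CCL2, 4.61-fold for CXCL11, 3.38-fold for CXCL9 and 2.56-fold for CCL5 in the mean of both segments. For CXCL10, whose probe was saturated on the Sd array of pig 8, it was at least 2.74-fold. It was 3.64-fold with the second probe, which was as bright on that array, so this may be a lower bound too. The second probe gave 4.12-fold for CCL5.

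CCL2 (MCP-1), the main attractant of monocytes, was the gene that passed with YOd. Its log2 level in the Sd segments ranged from -0.65 in pig 4 over a median of 0.13 to 2.71 in pig 8. It was 0.70, 1.62 and 0.02 in the YOd segments of pigs 1, 2 and 4, where the Sd segments had -0.50, 1.5 and -0.65. In the WOd segments of pigs 5, 6, 7 and 8 it was 1.16, -1.34, -0.63 and 2.45, where the Sd segments had 1.06, -0.38, 0.13 and 2.71. The YOd segment was higher than its Sd segment in 3 of 3 pigs and the WOd segment lower in 3 of 4, while the 3 groups overlapped because the pigs started so far apart.

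As log2 ratios, CCL2 gave 1.20, 0.12 and 0.67 in the YOd pigs 1, 2 and 4 and 0.10, -0.96, -0.76 and -0.26 in the WOd pigs 5, 6, 7 and 8. With YOd it rose by 0.66 (SE 0.22, 95% interval 0.14 to 1.19), a 1.58-fold change with a raw p of 0.0209 by limma and 0.386 after adjustment. With WOd it was -0.47 (SE 0.21, 95% interval -0.96 to 0.03), short of the thresholds. The YOd value missed them without pig 1, at 0.40, and without pig 4, at 0.66, and without pig 2 it was 0.93. Without the pig as a block the raw p was 0.332. With the slide as a further block, which keeps only pigs 1 and 4 of the YOd pigs, it was 0.93 (SE 0.20, adjusted p = 0.0391 by limma). In that fit 325 of all genes passed both thresholds, against 111 in the fit reported. The exact sign-flip permutation test cannot go below p = 0.250 with 3 pigs or below 0.125 with 4.

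Both onions were then set against each other. For CCL2 the effect of YOd exceeded that of WOd by 1.13 on the log2 scale (SE 0.34, 95% interval 0.37 to 1.89), the 11th lowest raw p among 2497 genes (raw p of 0.00845 and adjusted p of 0.852 by limma). This was 1 of the 10 chemokines against 3.52% of all genes, and the other 9 did not pass. The call held with each pig left out in turn, at 0.86 to 1.40, but was lost in the fit without the pig as a block, with a raw p of 0.393. In that fit 5 of all genes passed, against 88 in the fit reported. Over the 7 pigs together the opposite values left a mean of 0.02 (SE 0.23). The second probe of CCL2 correlated with the first with r = 0.99 over the 14 arrays and gave 0.76 with YOd, -0.51 with WOd and 1.27 for the difference. With that probe, all 3 YOd pigs were above 0 and all 4 WOd pigs below it, by as little as 0.01 in pig 2 and -0.03 in pig 5.

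**Figure D4:**
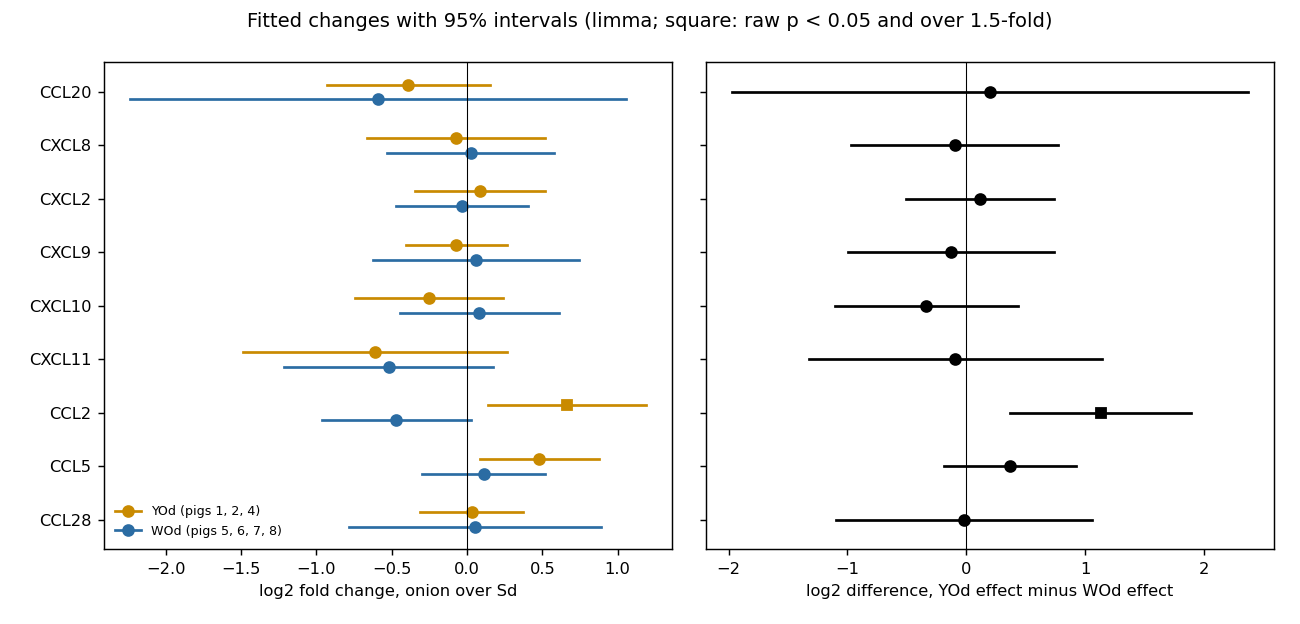
Left, log2 fold change of onion over Sd for YOd (ochre, 3 pigs) and WOd (blue, 4 pigs), and right, the YOd effect minus the WOd effect, for 9 chemokines with 95% intervals from limma. Squares mark a raw p below 0.05 and a change above 1.5-fold, which CCL2 alone reached, with 0.66 for YOd and 1.13 for the difference.

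CCL5 (RANTES) stayed under 1.5-fold with both onions. In the Sd segments its log2 level ranged from 4.72 over a median of 6.08 to 7.05. The YOd segments of pigs 1, 2 and 4 had 6.67, 6.33 and 6.65, and the WOd segments of pigs 5, 6, 7 and 8 had 7.07, 4.91, 5.28 and 6.03. The onion segment was higher in 6 of 7 pigs, with log2 ratios of 0.59, 0.15 and 0.70 for YOd and of 0.02, 0.19, 0.50 and -0.27 for WOd. The mean was 0.27 (SE 0.13, 95% interval -0.02 to 0.56, adjusted p = 0.652 by limma). With YOd it was 0.48 (SE 0.16), a 1.40-fold change with 0.0242 as the raw limma p, and without pig 2 it was 0.64 and passed both thresholds. The median of all genes with YOd was 0.14. The second probe gave 0.46 with YOd and 0.26 over the 7 pigs. The unscaled signal of the first probe was 49083.6 with Sd and 51750.2 with YOd in pig 4, and 30444.5 and 40375.8 in pig 1. The array's 75th percentile in pig 4 was 795 with Sd and 515 with YOd, so its ratio depends on the scaling. Without scaling between arrays the mean over the 7 pigs was 0.12, with a raw p of 0.341 by limma.

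Markers of T cells and natural killer cells were read beside CCL5. The summed linear level of 9 such markers was 1.59-fold, 0.995-fold and 1.46-fold that of the Sd segment in the YOd pigs 1, 2 and 4. In the WOd pigs 5, 6, 7 and 8 it was 1.11-fold, 1.12-fold, 1.40-fold and 0.705-fold. All 9 markers were above the floor on some array, and the sum ranged from 37.1 to 190 in Sd, from 104 to 126 in YOd and from 41.6 to 211 in WOd. The granule protease GZMB made up between 69.1% and 81.2% of that sum. Without it the 8 other markers gave 1.30-fold, 0.993-fold and 1.92-fold in pigs 1, 2 and 4, and 0.932-fold, 1.10-fold, 1.81-fold and 0.631-fold in pigs 5, 6, 7 and 8. Their part in the CCL5 values was not tested.

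CCL28, the epithelial attractant of IgA plasma cells through CCR10, was steady between Sd segments. It had log2 levels in Sd segments from -1.28 over a median of -1.13 to -0.74. Its SD of 0.21 over the Sd arrays was larger than or equal to that of 8.21% of the genes. In the YOd segments of pigs 1, 2 and 4 it was -1.16, -0.95 and -0.80, and in the WOd segments of pigs 5, 6, 7 and 8 it was -2.05, -0.74, 0.05 and -1.35. The WOd segments of pigs 5 and 7 thus lay outside the range of the Sd segments, on opposite sides, with log2 ratios of -1.25 and 1.05. The mean log2 ratio was 0.04 (SE 0.22, 95% interval -0.44 to 0.53), and it was -0.12 without pig 7.

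CCL25 (TECK), the small intestinal chemokine read by CCR9, was too bright for the scanner on most arrays. Its probe was saturated on 11 of 14 arrays, among them all 3 YOd arrays and the Sd arrays of all pigs but pig 6, so no fold change is given for the groups. In pig 6, where neither array was saturated, the log2 level was 6.58 with Sd and 6.88 with WOd. In pig 5 the saturated Sd array had 7.57 and the WOd array 7.24, so the Sd level was at least 1.26-fold that of WOd.

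**Figure D5:**
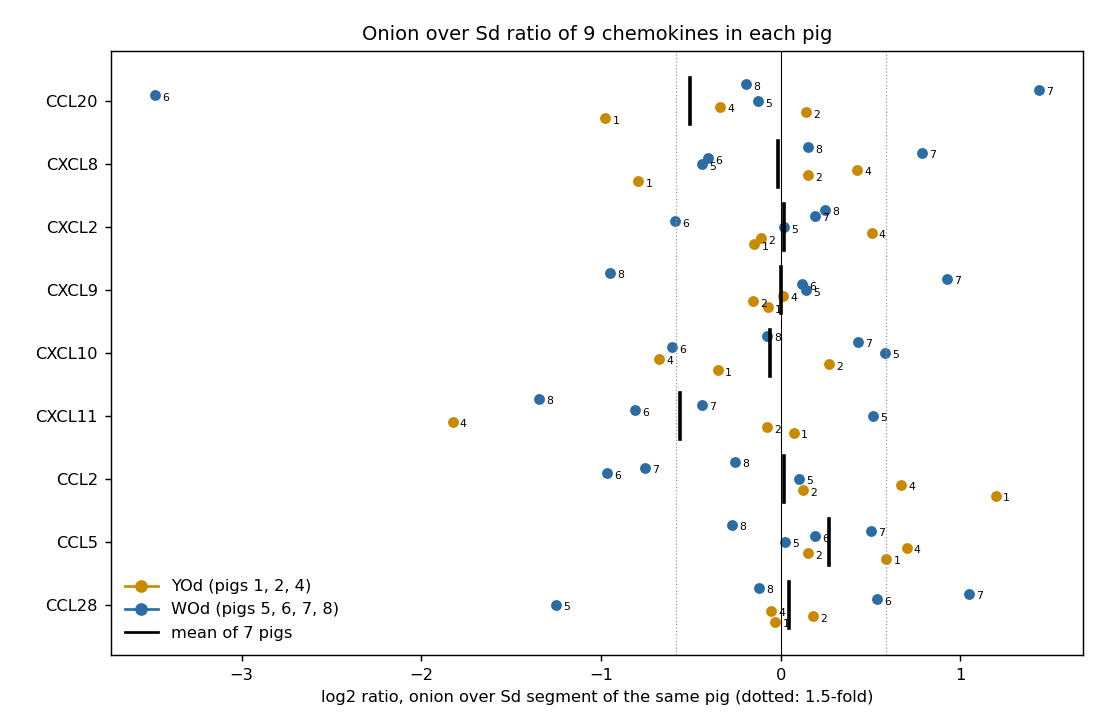
Log2 ratio of the onion over the Sd segment of the same pig (horizontal axis) for 9 chemokines, 1 point per pig (ochre YOd, blue WOd, with the pig's number), the mean of 7 pigs as a black line and 1.5-fold as dotted lines. The points straddle 0 for every gene, and for CCL2 the 3 YOd pigs lie to the right of the 4 WOd pigs.

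Counted by pig and without CCL25, none of the other 9 chemokines differed over 1.5-fold between the segments of pig 2. The number was 1 for pig 5, 2 for pig 8, 4 each for pigs 1 and 4 and 5 each for pigs 6 and 7. The share of all genes over 1.5-fold was 2.67% for pig 2, and for the remaining pigs it lay between 12.3% and 24.2%. The median absolute log2 ratio of the 9 chemokines in pigs 7, 6 and 4 was 0.76, 0.59 and 0.51, where that of all genes was 0.26, 0.26 and 0.32.

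Of 20 chemokine receptors and decoy receptors, 13 had a named probe, which did not include CCR6 of CCL20, CXCR3 of CXCL9 to CXCL11 or CXCR1 and CXCR2 of CXCL8. With YOd, 2 of the 12 tested rose and 1 fell, against a share of 4.53% past the thresholds over all genes. The median log2 fold change of the 12 was 0.42 against 0.14 for all genes. CCR10, the receptor of CCL28, rose by 0.75 (SE 0.16), and ACKR1, the scavenging receptor of venules that binds CCL2, CCL5 and CXCL8, by 1.28 (SE 0.46), while CCR7 fell by 0.62 (SE 0.21). CCR2, the receptor of CCL2, had 0.53 (SE 0.14), and CCR9, that of CCL25, had 0.47 (SE 0.16), both with a raw p below 0.05 and below 1.5-fold. With WOd 0 of 12 passed, against 1.19% of all genes, and the median of the 12 was -0.05. Over the 7 pigs CCR7 fell by 0.89 (SE 0.34), and no other receptor passed, against 1.25% of all genes. CCR10 and ACKR1, 2 of 12 tested, also passed for the difference between the onions, at 1.00 and 1.60, against 3.52% of all genes. Single pigs decided most of these calls. With YOd, ACKR1 was 0.53 and CCR7 -0.39 without pig 1, and both also missed the thresholds without pig 4, whereas CCR10 passed without any 1 of the 3 pigs. The CCR7 value over the 7 pigs was -0.55 without pig 6, under 1.5-fold, and it missed the raw p without pig 7. For the difference, ACKR1 was 0.86 without pig 1 and did not pass, and CCR10 did not pass without pig 1, 4, 5 or 6. The adjusted p of these receptors by limma was at least 0.386 in each comparison.

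Of 25 further chemokines, 16 had a named probe. With YOd, CCL19 of lymphoid tissue rose by 0.70 (SE 0.28), the stromal CXCL12 by 0.60 (SE 0.25), and CCL26 (eotaxin-3) fell by 0.93 (SE 0.29), out of 14 tested with a median of 0.19. The share over all genes with YOd was 4.53%. For the difference between the onions, CCL11 (eotaxin), the neighbour of CCL2 in the pig genome, gave 0.71 (SE 0.22), CCL19 1.59 (SE 0.59) and CXCL12 1.55 (SE 0.61). These were out of 14 tested, against 3.52% of all genes. Over the 7 pigs 0 of 14 passed, and with WOd 0 of 15, against 1.25% and 1.19% of all genes. The YOd calls rested on single pigs. Without pig 1, CCL19 was 0.31 and CXCL12 0.24, and CCL26 was -0.51 without pig 4. CCL19 and CXCL12 did not pass without pig 4 either, and CCL19 was 1.07 without pig 2. For the difference, CCL19, CXCL12 and CCL11 did not pass without pig 1, nor did CCL19 and CXCL12 without pig 4. Without pig 6, which held the lowest WOd levels of CCL19 and CXCL12, they were 1.08 and 0.95 and passed.

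Genes of interferon signalling and other interferon-induced genes were read beside CXCL9, CXCL10 and CXCL11. Of 26 genes of this axis, 22 had a named probe and 20 were tested. Of these, MX2, an antiviral GTPase that interferon induces, fell by 0.68 (SE 0.22) with YOd but missed the thresholds without pig 1 or 4, and 0 passed with WOd, over the 7 pigs or for the difference. The 1 of 20 with YOd stands against 4.53% of all genes, and the others against 1.19%, 1.25% and 3.52% in that order. Over the 7 pigs the median of the 20 was -0.02 against 0.09 for all genes, and IFNG itself had 0.52 (SE 0.26). On the Sd array of pig 1, MX1 and PSMB9 had a log2 level of 7.42, where the saturated CCL25 had 7.33. A change in genes so near the scanner's limit may not show.

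Of 23 NF-kB and cytokine genes, a list of inducers of CCL20, CXCL8, CXCL2 and CCL2 such as TNF and IL1B and of other NF-kB targets such as ICAM1, 18 had a named probe. Of 16 tested, 0 passed with YOd, with WOd or over the 7 pigs (median of 0.04), against 4.53%, 1.19% and 1.25% of all genes. VCAM1, the endothelial adhesion molecule, is such a target and passed for the difference between the onions at 0.94 (SE 0.40), 1 of 17 tested against 3.52% of all genes. It was 0.58 without pig 6 and passed only without pig 5 or 7. TNF had 0.51 (SE 0.14) with YOd and 0.06 (SE 0.25) with WOd, and IL1B 0.38 (SE 0.20) and 0.27 (SE 0.23).

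Other cell types were read from their markers. The summed linear level of 7 myeloid markers ranged from 99.2 to 194 in Sd, from 135 to 182 in YOd and from 128 to 183 in WOd, and LYZ (lysozyme) made up between 67.8% and 88.2% of it. Without LYZ the 6 other markers of the onion segment were 1.44-fold, 0.957-fold and 1.30-fold those of the Sd segment in the YOd pigs 1, 2 and 4. In the WOd pigs they lay between 0.776-fold and 1.05-fold. In pig 1 the log2 ratio was 1.51 for the neutrophil protein S100A9, 1.06 for S100A8, 1.04 for S100A12 and 0.68 for CD14. With YOd S100A9 passed with a rise of 0.67 (SE 0.27), 1 of 7 myeloid markers against 4.53% of all genes. It was 0.26 without pig 1 and did not pass without pig 4. The summed level of 5 endothelial and stromal markers in the onion segment was 1.44-fold, 0.933-fold and 1.43-fold that of the Sd segment in pigs 1, 2 and 4, and between 0.898-fold and 1.03-fold in pigs 5, 6, 7 and 8. CCL2 had its highest log2 ratios, 1.20 and 0.67, in pigs 1 and 4 too, and the part of the myeloid, endothelial and stromal markers in its value was not tested. Absorptive epithelium markers, several near the scanner's limit, were 1.11-fold and 1.49-fold in these pigs. T and natural killer cell markers were 1.59-fold and 1.46-fold. The array's 75th percentile in pig 4 was 795 with Sd and 515 with YOd, so its folds depend on the scaling. The unscaled CCL2 signal was 506 with Sd and 522 with YOd in pig 4, and 319 and 645 in pig 1. Smooth muscle markers, summed over 3 genes, ranged from 19.3 to 38.6 in Sd, 21.0 to 45.2 in YOd and 11.4 to 31.2 in WOd.

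By the pattern over the 14 arrays, the gene most like CCL5 among 2181 genes above the floor on all of them was CCR9, with Pearson's r of 0.97, then the lymphocyte surface protein CD96 (0.97) and CD3E of the T cell receptor complex (0.95). CCL2 was most like CCL19 (r = 0.97), then CDH11 and BIN1 (0.94 each). CXCL9 was most like DRAM1 (0.93), CXCL10 (0.89) and SAA3 (0.87), and CXCL10 like CXCL9 (0.89) and SPP1 (0.83). CXCL11 was most like PRIM1 (0.85), TOP2A and CDK1 (0.83 each).

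The remaining genes had weaker matches. CCL20 was most like ADM (0.80), IFIT3 (0.78) and PDZK1IP1 (0.77), CXCL8 like FOS (0.74), PMAIP1 and SMAD2 (0.69 each), CXCL2 like GUCY1A3 (0.84), TNC and TIMP1 (0.83 each), and CCL28 like PC (0.75), STAT5B and KDM2A (0.64 each). For the saturated CCL25 they were TXN (0.99), ATP5J2 and RPS4X (0.98 each). These are descriptions over arrays of 7 pigs that share pig, slide and scaling.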

How the data were processed

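Total RNA of mucosal scrapings was labelled with Cy3 and hybridised to 1-colour Agilent pig arrays. The authors deposited a scanner file per array, made by Feature Extraction 10.7.3.1, with the processed signal of each spot (a linear intensity after background subtraction), its median and background intensity, and flags for outliers, saturation and background. They also deposited log2 values of 28369 probes, used as an alternative. Their columns had medians from -0.05 to 0 and correlated best with their own array in 14 of 14 cases (r from 0.909 to 0.955). Their scaling and the centring of each probe are not settled. The labels name RMA, which the methods state for the other models.

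Here outlier spots were left out, repeated spots averaged and signals scaled to each array's 75th percentile. The 40th percentile of the pooled scaled signals served as a floor (log2 level -4.43), and log2 was taken. Accessions of 6686 of 43603 probes were named through RefSeq (Sscrofa11.1). Of several probes of a gene the one with the highest mean was used. The fits used limma 3.58.1 in R 4.3.3 over all named genes, with the pig as a block as in the methods. Testing required a signal above that floor on at least 7 arrays over the 7 pigs, 3 for YOd and for the difference, and 4 for WOd. The pairing comes from the labels, which name the pig of each array, and after subtraction of group means the Sd and the onion array of each pig had an r of 0.496 to 0.716 across genes. A gene passed at a raw p below 0.05 and a change above 1.5-fold. Replicates are segments of different pigs. The fits were tested on simulated data. Python 3.11.15 served for the rest.

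Alternatives covered normalization (quantile, none), normexp background correction (offset 50, on the median signal, as no mean signal stands in the files used), the floor, the filter, the probe, the deposited log2 values, the block, the slide, the sign-flip test and each pig left out. Leaving out each pig for the called genes of the lists, and the brightest gene for the marker sums, was added after seeing the data. The chemokines, the gene lists and the test between pigs were chosen with earlier results of these data known. The genes named are the 10 chemokines, members of the lists and the 3 genes most alike to each. Some genes that this rule names are not reported here, and the summed B cell markers leave such a gene out. No sequences are printed. The number of arrays limits the precision.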

Additional observations from a re-analysis of the deposited data

Results flagged for a closer look

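The log2 level of CCL20 in the WOd segment of pig 7 was 3.37, far from those of the other 3 WOd segments, 2.11 to 2.29. Its gap was 85.4% of the range of the group. It was the 1 of 36 groups of values that stood out in this way (9 chemokines without CCL25, their Sd and WOd levels and their ratios over 7 and 4 pigs), and chance gives about 1 in 20. The Sd and the WOd array of pig 7 came from different slides.

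The effect of YOd on CCL2 differed from that of WOd, by 1.13 on the log2 scale (SE 0.34, raw p of 0.00845 and adjusted p of 0.852 by limma). CCL2 was higher in the onion segment of 3 of 3 YOd pigs and lower in that of 3 of 4 WOd pigs. The onions were given to different pigs, so onion and set of pigs cannot be told apart.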

How the results depend on the processing

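The mean log2 ratios over the 7 pigs near 0 have no firm sign. Without scaling between arrays, CXCL2 gave -0.13, CXCL9 -0.15, CCL2 -0.13 and CCL28 -0.11, while the median of all genes moved from 0.09 to -0.06. With the authors' processed values CXCL2 gave -0.0050, CXCL9 -0.018 and CCL2 -0.0054, and CXCL9 gave -0.0034 with quantile normalization and -0.00044 with normexp. Without pigs 2 and 7, and with the slide as a block, which removes these pigs, CXCL9 gave -0.15 and CCL28 -0.18. Leaving out 1 pig at a time, the range was -0.15 to 0.11 for CXCL8, -0.064 to 0.12 for CXCL2, -0.15 to 0.16 for CXCL9, -0.17 to 0.041 for CXCL10, -0.18 to 0.18 for CCL2 and -0.12 to 0.26 for CCL28. CCL20, CXCL11 and CCL5 kept their sign in every alternative run, but CCL5 went from 0.27 to 0.12 without scaling between arrays.

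The number of the 10 chemokines past both thresholds depended on single pigs. Over the 7 pigs it was 0 in the fit reported and 0 to 1 with a pig left out (CXCL11, without pig 1, 2 or 5). It was 1, CCL20 at -1.02, with the slide as a block or without pigs 2 and 7. Of all genes, 77 and 78 passed there, against 30 in the fit reported. With YOd the chemokine count was 1 and ranged from 0, without pig 4, to 4, without pig 2 (CCL2, CCL5, CCL20 and CXCL11). It was 4 as well with the slide blocked and without pigs 2 and 7. Calls rose over all genes too. With YOd 111 genes passed in the fit reported, 59 without pig 4, 327 without pig 2 and 325 with the slide blocked. The chemokine count with YOd was 0 with normexp, with every gene tested and with the authors' processed values. Of all genes, 65, 20 and 10 passed in these fits, against 111 in the fit reported. CCL2 itself was lost in these fits and without scaling, where 102 of all genes passed. Without scaling the chemokine count of 1 was CCL20 at -0.70, with CCL2 at 0.35. The exact sign-flip permutation test cannot decide this, since with 3 pigs it cannot go below p = 0.250 and no gene could pass. With WOd the chemokine count ranged from 0 to 2 with a pig left out (CCL2 and CXCL11 without pig 5, CCL20 without pig 7). It was 1 with the slide as a block and without pigs 2 and 7. Of all genes, 29 passed with WOd in the fit reported, 55 without pig 5, 87 without pig 7 and 87 with the slide as a block. For the difference between the onions the chemokine count was 1 with every pig left out in turn. It was 2 (CCL2 and CCL5) with the slide as a block and without pigs 2 and 7. There 191 and 194 of all genes passed, against 88 in the fit reported. Without the pig as a replicate block the chemokine count was 0 with YOd, 0 for the difference and 0 elsewhere. Of all genes, 20 passed there with YOd and 5 for the difference, against 111 and 88 in the fits reported. The cause of these moves was not tested, apart from the samples each alternative leaves out.

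Between pigs, 6 chemokines passed in the fit reported and 5 to 7 under the alternatives, and the 1 lost was CXCL11 with every gene tested, at an adjusted p of 0.0545. The 1 gained, with normexp, was the saturated CCL25.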
